A study of Homo sapiens with 7 samples.

Results

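The receptors of the ERBB family and their ligands were described here by 10 genes, taken by their gene names on the array: the 4 receptors EGFR, ERBB2, ERBB3 and ERBB4, and the 6 ligands EGF, AREG, EREG, TGFA, HBEGF and BTC. They are 10 of the 36337 gene names on the array, and they were represented by 18 probes on 27 of 58717 spots. HCT116 is a human colon carcinoma cell line, labelled diploid. In this series the titles of the 3 untreated samples name a GFP-tagged histone H2B. Figure legends of the study mark lines with that tag by asterisks and write bafilomycin-treated HCT116 without one. The study asked which stress conditions give expression profiles like those of aneuploid cells. In the arm described here the cells were exposed to 10 nM bafilomycin A1, a macrolide inhibitor of the vacuolar proton pump, for 30 h. All groups were labelled as grown in DMEM with 10% serum at 5% CO2. Total RNA from 4 replicates was labelled with Cy3, 100 ng per sample, and each was measured on 1 Agilent array of a single slide. Of the untreated cells, 3 samples, no arrays were analysed here. Therefore every value below describes levels in treated cells and the spread between 4 replicates of 1 condition, with no fold change against untreated cells and no test between groups. The series calls the treated replicates biological, but nothing in the sources says which cultures they came from.

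Receptors of this family are tyrosine kinases of the plasma membrane that signal as pairs. EGFR binds EGF, AREG, EREG, TGFA, HBEGF and BTC, whereas ERBB2 has no known ligand and ERBB3 has a weakly active kinase, so both act mainly by pairing with other receptors. The ligands are made as membrane-bound precursors that metalloproteases cut from the cell surface. Activated receptors feed the RAS-ERK and PI3K-AKT cascades and are then taken up into endosomes and degraded in lysosomes, the acidic compartments that need the proton pump.

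Every probe on the array is 60 bases long, so what a signal reports depends on which piece of the message the probe meets. The probes shown here are those on which the description of a gene turns. All positions are on GRCh37 as the array files give them, and the sequences are read 5′ to 3′ on the strand of the message. They include probes that the files name for truncated receptor forms, an ERBB3 probe that gave little signal, and probes of AREG and TGFA for which a second probe of the same gene was measured. For 2 of them only the last 30 bases are given.
EGFR probe of transcript variant 2, chr7:55231446-55231505, plus strand: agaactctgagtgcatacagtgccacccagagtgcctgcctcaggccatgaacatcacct
EGFR probe of transcript variant 3, chr7:55224558-55224617, plus strand, last 30 bases: cgacatatttcctgttcccttggAATAAAa
ERBB3 probe of variant s, chr12:56479217-56479276, plus strand, last 30 bases: ggccaggcctgaTGGCTTACACCTGTAAtc
ERBB3 inner probe of variant 1, chr12:56482380-56482439, plus strand: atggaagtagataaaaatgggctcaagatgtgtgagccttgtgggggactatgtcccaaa
AREG upstream probe, chr4:75318293-75318352, plus strand: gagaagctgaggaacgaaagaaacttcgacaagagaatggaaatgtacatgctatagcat
TGFA upstream probe, chr2:70683472-70683531, minus strand: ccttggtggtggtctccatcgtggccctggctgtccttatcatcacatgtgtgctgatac
Capitals in the EGFR sequence mark AATAAA, the letters of a polyadenylation signal, which lay at the end of the probe for the short message. Capitals in the ERBB3 sequence mark a run of 16 bases that also stands, on the opposite strand, in 1 probe of another gene. A run of 16 or more bases shared with a probe of another gene name, on either strand, was found in 2 of the 18 probes, that of ERBB3 variant s and that of BTC, and in 16% of all 50599 probes. The BTC probe shared 17 bases with 1 other probe on the same strand. The positions were not placed in exons, introns or untranslated regions, since no annotation of this build was used here.

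In bafilomycin A1-treated HCT116 cells, 8 of the 10 genes were detected, 3 of 4 receptors and 5 of 6 ligands. Detection required 1 or more probes whose spots were, by more than 50%, flagged by the scanner software as well above the local background on all 4 arrays. ERBB4 and EGF were well above background on no array. The same rule passed 52.5% of all gene names and 70.8% of the gene names with a curated RefSeq mRNA. Of the 18 probes, 14 were well above background on all 4 arrays, 1 on some arrays and 3 on none. No spot was saturated. In these values fewer cells with a message and less message per cell cannot be told apart.

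**Figure D1:**
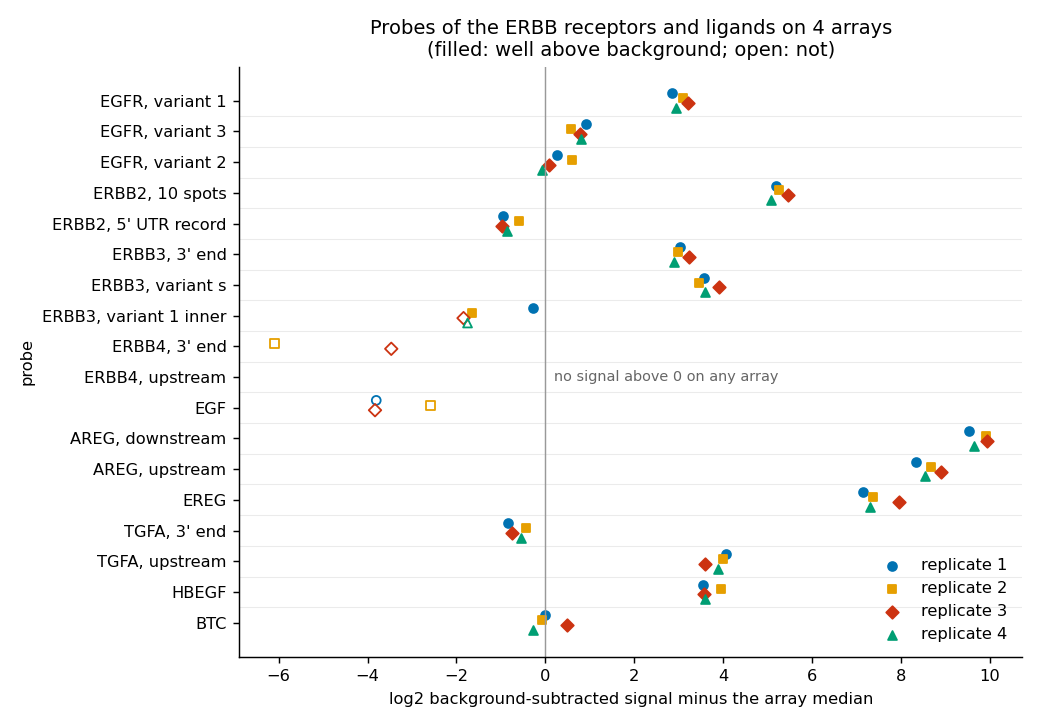
Level of each of the 18 probes (vertical axis) on each array, as log2 background-subtracted signal minus the array median (horizontal axis); filled symbols were well above background on that array and open symbols were not, and signals at or below 0 have no point. The 2 ERBB4 probes and the EGF probe hold only open symbols or none, and the inner ERBB3 probe is the only one with both kinds. Levels of different probes cannot be set against each other, because probes differ in how well they bind.

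The arrays themselves differed little in how much they detected. Between 55.6% and 60.4% of the spots were well above background, lowest on replicate 4. Replicate 3 stood apart in its outlying spots, with 2249 against 514 to 725 on the other arrays. It also held the highest level of 48.5% of the 19083 detected genes. Of the 7 epithelial markers 6 were detected, all but VIL1, with EPCAM at 8.70, 8.83, 9.04 and 8.79 on replicates 1 to 4. Of the markers of other cells, 3 of 4 haematopoietic, 2 of 3 endothelial and 1 of 4 fibroblast genes were also detected, with PECAM1, COL1A2 and PDGFRB well above background on no array. Among gene names with a curated RefSeq mRNA, 70.8% were detected by the same rule.

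EGFR, the founding receptor of the family, was detected by all 3 of its probes. The probe for transcript variant 1, which encodes the full-length receptor, lies at chr7:55274841-55274900. Its background-subtracted signals were 555.5, 602, 652 and 489 on replicates 1 to 4, or levels between 2.85 on replicate 1 and 3.22 on replicate 3. A level here and below is the log2 of that signal minus the median of the array. The probe named for variant 3, which encodes a truncated secreted form, had levels of 0.90, 0.58, 0.78 and 0.81, from signals between 105 and 144. Its sequence above ends in the letters of a polyadenylation signal, and it lies upstream of the other EGFR probes in the gene. The probe named for variant 2 had levels of 0.26, 0.60, 0.09 and -0.08. Variant 2 encodes another truncated secreted form, but the full-length message also holds this coding sequence of the outer part of the receptor, so the levels cannot be assigned to either message. The last probe spread most, with an SD of 0.29 against 0.16 for the variant 1 probe and 0.14 for the variant 3 probe (n = 4 arrays each).

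The 3 EGFR probes did not order the arrays alike. Replicate 3 was highest for the variant 1 probe, replicate 1 for the variant 3 probe and replicate 2 for the variant 2 probe. As the median of the 3 probes, the EGFR level was 0.90, 0.60, 0.78 and 0.81, a mean of 0.77 ± 0.13 (SD, n = 4). That median was the value of the variant 3 probe on replicates 1, 3 and 4 and of the variant 2 probe on replicate 2, so the variant 1 probe never set the level of the gene.

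ERBB2, the receptor without a ligand, was covered by 2 probes. The probe for variant 2 at chr17:37884829-37884888 was printed as 10 spots and gave mean signals of 2802, 2697, 3074 and 2125, or levels of 5.18, 5.27, 5.45 and 5.07. The other probe, at chr17:37851136-37851195, is described in the files as a record of the 5′ untranslated region and had levels of -0.96, -0.60, -0.98 and -0.86. Both were well above background on all 4 arrays. Replicate 3 was the highest array of the first and the lowest of the second.

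The gene level of ERBB2, the median of both probes, was 2.11, 2.33, 2.24 and 2.10, a mean of 2.20 ± 0.11 (SD, n = 4), the smallest SD among the detected members. Taken alone, the probes had SDs of 0.16 and 0.17. The median of both thus varied less than either probe, and the rank of ERBB2 holds only for that median. The 10 spots allowed the spread within an array to be measured. The log2 signals of these spots had SDs of 0.21, 0.19, 0.21 and 0.17 on replicates 1 to 4, over 10, 10, 9 and 10 spots after 1 outlying spot on replicate 3 was left out. On replicate 1 they ranged from 2208 to 3255 and on replicate 4 from 1732 to 2447. The median SD over all probes printed 10 times was 0.19, 0.19, 0.19 and 0.16 on the same arrays. Between arrays, the means over these spots had an SD of 0.16.

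ERBB3, which signals to PI3K by pairing with the other receptors, was detected by 2 of 3 probes. The probe near the end of variant 1, at chr12:56496160-56496219, gave signals of 626, 552, 663 and 472 and levels of 3.02, 2.98, 3.24 and 2.90. The probe for variant s, a short message that encodes a secreted form, had levels of 3.56, 3.46, 3.90 and 3.60. On both probes replicate 3 was the highest array. This is the probe that shares a run of letters with another gene, on the opposite strand.

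The inner ERBB3 probe, the second one for variant 1, gave signals of 63.1, 22.3, 19.6 and 18.9, with scanner errors of 6.68, 4.84, 4.60 and 4.85. It was well above background on replicates 1 and 2 but not on replicates 3 and 4. Its levels were -0.29, -1.65, -1.84 and -1.75, so replicate 1 lay apart from the other arrays, which kept within 0.19 of each other. The gap to replicate 2 was 0.88 of the whole range, which is past Dixon's critical value for 4 values and marks 1 array as apart. Neither of the other ERBB3 probes placed replicate 1 at an end of its range. The ERBB3 level over all probes was 3.02, 2.98, 3.24 and 2.90, with a mean of 3.03 ± 0.15 (SD, n = 4). With the inner probe left out, the SD was 0.16.

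ERBB4, a receptor for neuregulins, HBEGF and BTC, was not detected by either of its probes. The probe at chr2:212248409-212248468 gave signals of -5.12, -4.91, -1.14 and -0.82, all below 0. The probe at chr2:212240515-212240574 gave -2.73, 1.03, 6.35 and -0.96. The scanner errors were 4.16 to 4.47, so only the 6.35 of replicate 3 exceeded its own error above 0. A weaker flag of the software, for signals positive and significant against background, was set for that spot alone. At this brightness an ERBB4 message below the background of the array was not detectable.

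**Figure D2:**
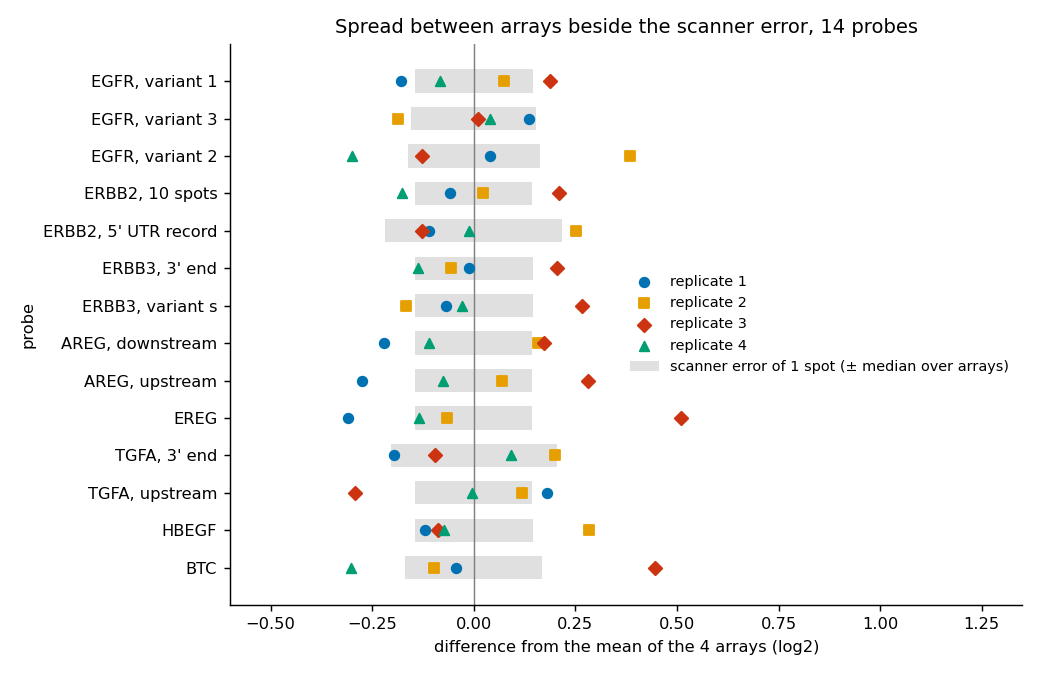
Difference of each array from the mean of the 4 arrays (horizontal axis, log2) for the 14 probes with signals well above background on all arrays; symbols are replicates and the grey bar is the error that the scanner software gives for 1 spot, as the median over arrays in both directions. Replicate 3 lies farthest right for EREG and BTC and farthest left for the upstream TGFA probe, and replicate 2 stands alone to the right for HBEGF.

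Among the ligands, AREG and EREG gave strong signals on every array, none below 10072. AREG encodes amphiregulin. Its probe at chr4:75320518-75320577 gave signals of 57297, 67773, 68565 and 50891, and its upstream probe, shown above, gave 24845, 28675, 33293 and 23472. The levels were 9.54, 9.92, 9.93 and 9.65 on the first and 8.33, 8.68, 8.89 and 8.53 on the second. The probes gave the same order of arrays, with replicate 3 highest, then 2, 4 and 1. The AREG level was 8.94, 9.30, 9.41 and 9.09, a mean of 9.18 ± 0.21 (SD, n = 4). GRCh37 carries a near-identical copy of this gene beside it, so the signal cannot be assigned to 1 copy.

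EREG, which encodes epiregulin, had the largest SD of the detected members with all 4 arrays. Its only probe, at chr4:75254009-75254068, gave signals of 10837, 11685, 17440 and 10072, or levels of 7.14, 7.38, 7.96 and 7.31. Replicate 3 was the highest array by 0.58, whereas the other arrays kept within 0.25 of each other. The mean was 7.45 ± 0.36 (SD, n = 4), and the lowest and highest levels differed 1.77-fold. Without replicate 3 the span was 1.19-fold and the SD 0.13, below those of EGFR, ERBB2, AREG, HBEGF and BTC, the largest of which was 0.22 for HBEGF. Without replicate 1 the SD was 0.35, below the 0.39 of BTC.

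BTC, which encodes betacellulin, was weak but well above background on all 4 arrays. The probe at chr4:75675838-75675897 gave signals of 76.4, 66.9, 97.7 and 52.6, and levels of -0.01, -0.07, 0.48 and -0.27. The mean was 0.03 ± 0.32 (SD, n = 4), with replicate 3 again highest and a span of 1.68-fold. Without replicate 3 the span was 1.20-fold. This probe shares 17 bases on the same strand with a probe of another gene, and the part of that gene in the signal was not tested.

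TGFA, which encodes transforming growth factor alpha, had 2 probes that ordered the arrays differently. The upstream probe shown above had signals of 1282, 1118, 842 and 930 and levels of 4.06, 4.00, 3.58 and 3.87, lowest on replicate 3. The probe near the end of the message, at chr2:70675319-70675378, had signals of 42.0 to 51.5 and levels of -0.84, -0.45, -0.74 and -0.55, lowest on replicate 1. Replicate 1 was thus the highest array of one probe and the lowest of the other. The TGFA level was 1.61, 1.78, 1.42 and 1.66, with a mean of 1.62 ± 0.15 (SD, n = 4).

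HBEGF, which encodes heparin-binding EGF-like growth factor, was the only member with 1 array apart. Its probe at chr5:139713052-139713111 gave signals of 896, 1078, 835 and 763, or levels of 3.54, 3.94, 3.57 and 3.59. Replicate 2 was highest, and the other arrays kept within 0.05 of each other. The mean was 3.66 ± 0.19 (SD, n = 4). Dixon's ratio was 0.88 with centring on the array median, but 0.47 after normexp and quantile normalization and 0.43 with the processed signal of the scanner, so the call depended on the scaling. An array stood apart in 8.48% of all detected genes, where chance gives about 5%.

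EGF was not detected. The probe at chr4:110932689-110932748 gave signals of 5.52, 11.6, 4.93 and -0.68 with scanner errors between 4.19 and 4.47. No array was well above background, but the weaker flag for positive and significant signals was set on replicates 1, 2 and 3. EGF was therefore at the edge of what these arrays detect, whereas ERBB4 was below it on all arrays but replicate 3.

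With centring on the array median, the detected members had a median SD of 0.17, with a range of 0.11 to 0.36, and all 19083 detected genes had a median SD of 0.21. The order depended on the scaling. With the processed signal of the scanner both medians were 0.18, and after normexp and quantile normalization the members had 0.14 and all genes 0.11. Only EREG and BTC, 2 of 8, spanned more than 1.4-fold between the lowest and the highest array, against 46.4% of all detected genes. The study used a cut-off of 1.4-fold for ratios of aneuploid to diploid cells. A range over replicates of 1 condition is an unlike measure, so passing it does not call a gene changed. Without replicate 3 none of the 8 spanned more than 1.4-fold, and the share over all genes was 21.9%. Without replicate 1, 2 or 4 the count of members stayed at 2, and the shares over all genes were 37.7%, 39.1% and 39.5%. The span of a gene can only shrink or stay when an array is left out, so the counts of members could not rise. After normexp background correction and quantile normalization, EREG alone passed, with a span of 1.48-fold, against 15.5% of all genes. With the processed signal of the scanner, EREG and BTC passed again, against 39.1%. The SD of EREG exceeded that of 80.6% of detected genes and the SD of ERBB2 exceeded that of 13.2%. The levels of EGFR, ERBB2 and TGFA are medians over probes, and their SDs were smaller than that of any single probe of the gene.

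**Figure D3:**
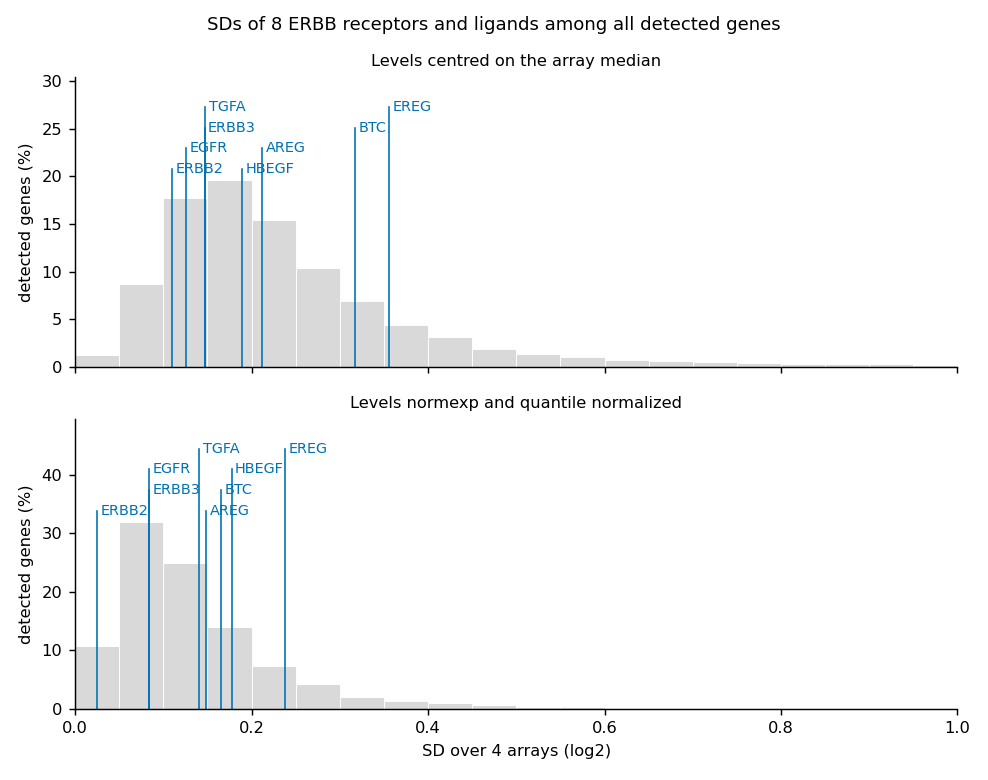
SD over the 4 arrays (horizontal axis, log2) of the 8 detected members, drawn as lines with their names, on the share of all 19083 detected genes in steps of the SD (grey bars, vertical axis in percent); the upper panel has levels centred on the array median and the lower panel has levels after normexp and quantile normalization. EREG and BTC have the largest SDs of the 8 in the upper panel, and BTC exceeds 75.9% of all genes there and 73.1% in the lower panel, where the SDs of all genes are smaller; genes with an SD above 1 are not drawn.

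The array that stood highest differed between members. Replicate 3 was highest for 4 of the 8 members (ERBB3, AREG, EREG and BTC), where the share over all detected genes was 48.5%. Replicate 2 was highest for ERBB2, TGFA and HBEGF, with 25.3% of all genes. Replicate 1 was highest for EGFR, with 20% of all genes, and replicate 4 for none, with 6.18%. The lowest level lay on replicate 1 for AREG, EREG and HBEGF (26.9% of all genes) and on replicate 4 for ERBB2, ERBB3 and BTC (35.1%). EGFR was lowest on replicate 2 (14.8%) and TGFA on replicate 3 (23.2%). With 8 genes these counts lay near the shares over all genes.

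The error of a single spot, as the scanner software estimates it, was 10.0% to 16.2% of the signal for the 14 probes well above background on all arrays. The SD between arrays was larger than that error for 11 of them, against 68.8% of all 24633 such probes. The 3 exceptions were the EGFR variant 3 probe, the second ERBB2 probe and the TGFA probe near the end of the message. For EREG the SD was 0.36 and the error corresponded to 0.14 on the log2 scale, whereas for the TGFA end probe the SD was 0.18 and the error 0.20. The error is an estimate for 1 spot. For the ERBB2 probe printed as 10 spots it was 0.14, and the array value is a mean over those spots. Within an array, these spots had measured SDs of 0.17 to 0.21, with medians of 0.16 to 0.19 over all probes printed 10 times. An SD above the estimate thus does not place the spread between arrays beyond the noise of single spots.

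The genes around the receptors were described with 8 lists of 89 genes. Of these, 78 were detected (87.6%), 3 were well above background on some arrays and 8 on none. By the same rule 52.5% of all gene names and 70.8% of those with a curated RefSeq mRNA were detected. The lists were chosen with earlier results of these data known, so their share is not read as a trait of the pathway. Among the 5 further ligands, NRG1 and NRG2, neuregulins that bind ERBB3 and ERBB4, were detected, NRG4 was well above background on 2 arrays, and NRG3 and EPGN were on none. NRG1 had levels of -1.81, -0.75, -1.55 and -2.11, and NRG2 had levels of -0.63, -1.19, -1.38 and -0.70. With only the probe of each that was well above background on all arrays, the SD of NRG1 went from 0.58 to 0.42 and that of NRG2 from 0.37 to 0.78.

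All 5 genes that release ligands were detected. ADAM17, the protease that cuts AREG, TGFA and HBEGF from their precursors, had levels of 3.77, 3.85, 4.46 and 4.09. ADAM10, which cuts EGF and BTC, had levels of 3.79, 3.97, 4.10 and 3.78. RHBDF2, which brings ADAM17 to the cell surface, had levels of 6.31, 6.30, 6.62 and 6.24, and its relative RHBDF1 had levels of 3.80, 3.94, 3.70 and 3.56. FURIN, a protease that matures these enzymes, spread least, with levels of 0.89, 0.95, 0.89 and 0.86. ADAM17 alone of the 5 spanned more than 1.4-fold, and it did so with replicate 3 highest.

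Below the receptors, 12 of 14 adaptors, 10 of 11 genes of the RAS-ERK cascade and 8 of 10 of the PI3K-AKT branch were detected. Those well above background on no array included GAB1, an adaptor of EGFR, STAT5A and PIK3R3, and KSR1 was well above background on 2 arrays. NRAS, a RAS GTPase, had levels of 2.60, 2.93, 3.15 and 2.69. MAPK3, which encodes ERK1, was lowest on replicate 3, with levels of 3.22, 3.24, 2.35 and 2.93. PTPN11, the phosphatase SHP2, had an SD of 0.58 over its 4 probes and 0.14 over the 3 that were well above background on all arrays.

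Of the 12 genes that remove or stabilize receptors 11 were detected, and LRIG2 was well above background on 3 arrays. CBL, the ubiquitin ligase that marks EGFR for lysosomal degradation, was highest on replicate 3 at 4.24, against 3.51 and 3.42 on replicates 2 and 4, with an SD of 0.48. USP8, the deubiquitinase that acts on receptors in endosomes, had levels of 3.12, 3.39, 3.70 and 3.16, and SH3KBP1, a partner of CBL, had levels of 4.60, 4.69, 5.12 and 4.66. Replicate 3 was highest for these 3 genes, which were named for the largest SDs of the list. Over the 11 detected genes of the list it was highest for 6 and lowest for 2, with 48.5% and 23.2% over all genes.

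Of the 14 genes of ERK feedback 12 were detected, with SPRED3 and DUSP7 well above background on no array. SPRY1, an inhibitor of the cascade, had levels of 3.94, 3.85, 4.67 and 3.93. SOCS3 had levels of 3.73, 4.05, 4.55 and 3.97. SPRY3 had the largest SD of the list, 0.84, but 0.19 with the single probe that was well above background on all arrays.

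All 18 transcription targets of the pathway were detected, among them CCND1, which encodes cyclin D1, at 5.99, 6.31, 5.16 and 5.88, and the ETS factor ETV5 at 4.28, 4.33, 5.23 and 4.44. CCND1 was lowest and ETV5 highest on replicate 3. KLF6 spread most of all listed genes, with levels of 0.28, 0.29, 3.73 and -0.53 and an SD of 1.90. Its probes with a positive signal were not the same number on every array, and with the probes well above background on all arrays the levels were 4.01, 4.11, 3.73 and 3.64 and the SD 0.22.

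**Figure D4:**
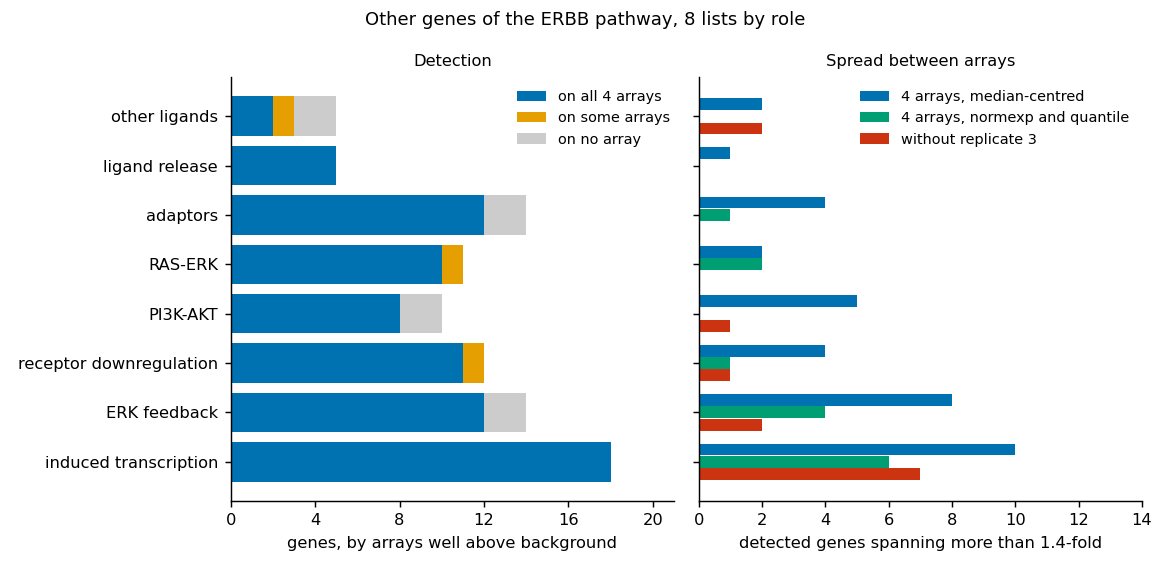
The left panel counts the genes of 8 lists (vertical axis) by how many arrays they were well above background on, and the right panel counts those detected genes of each list that spanned more than 1.4-fold between arrays, under median centring, under normexp and quantile normalization, and without replicate 3. The counts of genes past 1.4-fold were highest with all 4 arrays and median centring in each list, with equal counts in the other ligands and RAS-ERK lists under 1 alternative. For the bars without replicate 3 a higher count was not possible, because the span of a gene can only shrink or stay with an array left out.

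Over the 8 lists, 36 of the 78 detected genes spanned more than 1.4-fold, 46.2%, against 46.4% of all detected genes. The median SD was 0.21, as over all genes. Replicate 3 was the highest array for 43 of the 78, 55.1% against 48.5% of all detected genes, and the lowest for 17, 21.8% against 23.2%. Leaving out replicate 3, which can only shrink or keep the span of a gene, left 13 genes past 1.4-fold, 16.7% against 21.9% of all genes. Normexp with quantile normalization left 14, 17.9% against 15.5%. These shares lay near those of all genes. The lists with the most genes past 1.4-fold were the transcription targets with 10 of 18 and ERK feedback with 8 of 12. Without replicate 3 these counts were 7 and 2.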

How the data were processed

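Single-colour (Cy3) Agilent arrays of 4 bafilomycin A1-treated samples were used, and arrays of the 3 untreated samples were not used here. The authors deposited linear intensity values of every spot as Agilent Feature Extraction 10.7.3.1 wrote them, with the local background taken off and without normalization between arrays. Spots in the deposited files also carry a p-value against background, which was not used, and quality flags. Positions are on GRCh37. The labels give 10% serum and the methods another share.

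Control spots and spots with an outlier flag were dropped and repeated spots of 1 probe averaged, choices made here. Following the study's methods, background-subtracted signals were log2 transformed and centred on the array median (here over non-control probes), and probes of a gene were summarized by their median. Signals at or below 0 were dropped on that array. Means and SDs over 4 arrays are given where the study took medians. With 1 group no test was made. The number of arrays limits the precision, and slide could not be tested as a batch because all lay on 1 slide.

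Spread was described by SD, by the share of genes past 1.4-fold and by Dixon's ratio, the widest gap at an end of the 4 values over their range. These steps were tested on simulated data in which all probes of a gene gave the same positive signal and no spot was flagged. Probes that differ within a gene and signals below 0 were not simulated. Genes named are the members and, from each list, genes well above background on no array and up to 3 detected genes with the largest SD; the further ligands and the genes of ligand release are all named. Some genes that this rule names, and 1 probe sequence, are not reported here. Members and lists were chosen with earlier results of these data known. Gene names are those of the array files. The alternatives tried were the scanner's processed signal centred on its 75th percentile, normexp (offset 50) with quantile normalization in limma 3.58.1 (R 4.3.3), other probe and detection rules, inclusion of outlying spots, medians in place of means, and each array left out in turn. Python 3.11.15, numpy 2.4.6, pandas 2.3.3 and matplotlib 3.10.9 were used.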

Additional observations from a re-analysis of the deposited data

Results flagged for a closer look

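In 5 of 45 values of members, their probes and the named pathway genes, Dixon's ratio marked 1 array as apart. Chance gives about 5%, and the share over all detected genes was 8.48%. Many of the pathway genes were named for large SDs over these same arrays, and gene levels stand beside their own probes. The 45 values are thus neither unselected nor independent, and their share cannot be set directly against the others. HBEGF had a ratio of 0.88 with replicate 2 highest. The inner ERBB3 probe of variant 1 at chr12:56482380-56482439 had a ratio of 0.879 with replicate 1 highest. Among the pathway genes, SH3KBP1 (0.835) and SPRY1 (0.888) were highest on replicate 3, and SPRY3 (0.934) was highest on replicate 1, at 0.65 against -1.07, -0.96 and -1.06 on the other arrays. The single SPRY3 probe well above background on all arrays did not set replicate 1 apart. Its levels were -0.07, -0.08, -0.09 and -0.47 on replicates 1 to 4. Over all 78 detected pathway genes the ratio marked 6, or 7.69%. The others were LRIG1 (0.937, replicate 2 highest), DUSP5 (0.903, replicate 2 highest) and DUSP6 (0.910, replicate 3 highest), named after their values were seen.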

How the results depend on the processing

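The 8 detected members were the count under every detection rule, with outlying spots kept and with each array left out. The median SD of the detected members, 0.17, ranged from 0.133 without replicate 3 to 0.201 without replicate 4 when 1 array was left out. It was 0.18 with the processed signal and 0.14 after quantile normalization with normexp. The count of members past 1.4-fold, 2, was 1 after normexp and quantile normalization and ranged from 0 (without replicate 3) to 2 with 1 array left out. The count with 1 array apart, 1, was 2 after normexp and quantile normalization and 0 with the processed signal. In the former TGFA (0.95) and BTC (0.92) took the place of HBEGF. It was not computed with 3 arrays, for which Dixon's limit for 4 values does not hold. Detected pathway genes numbered 78 to 82 and detected epithelial markers 6 under all detection rules, with outlying spots kept and with each array left out. Mean levels of the members moved by more than their SD for all 8 under the processed signal and under normexp with quantile normalization. For ERBB3 the mean level also did so with only probes well above background on all arrays. The processed signal was centred on a higher percentile than the median, so its levels have another zero point. All 8 mean levels were lower there, for example EGFR at -1.51 against 0.77 and AREG at 6.81 against 9.18. That fall is therefore not read as instability of the levels. For normexp with quantile normalization the cause was not tested. The mean levels moved by less for all 8 with each array left out and with outlying spots kept. The same held with only probes positive on all arrays and as medians over arrays. No paired analysis was possible because the files hold 1 group. Weak signals limit ERBB4, EGF, BTC, the inner ERBB3 probe, the second ERBB2 probe, the TGFA probe near the end of the message and the EGFR variant 2 probe, where scanner errors of 4.16 to 11.5 units stood beside signals of at most 106.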
